A study of Mus musculus with 80 samples.

Results

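The genes described here encode DARPP-32 and the kinase and phosphatase subunits that act with it in striatal neurons. They were chosen by name: Ppp1r1b (DARPP-32), Arpp21, Arpp19, Ptpn5 (the phosphatase STEP), Ppp1ca, Ppp3ca, Prkaca, Prkacb, Prkar1b and Prkar2b. All 10 were among the 25160 listed genes. They were measured in 80 single cells of the adult dorsomedial striatum of mice heterozygous for 2 reporter transgenes, Drd1a-TdTomato and Drd2-EGFP, so every cell came from an animal with both. Cells were sorted by fluorescence, 40 as Drd1a-TdTomato and 40 as Drd2-EGFP. The values are TPM, by definition a transcript abundance scaled by length and to a fixed total per cell. Over the listed genes, however, the sum varied, from 506588 to 958040 in Drd1a-TdTomato cells and from 592060 to 944336 in Drd2-EGFP cells. The reporters mark the activity of the receptor genes' control regions carried by the transgenes and not the receptors themselves, and the labels do not tie a cell to an animal. With no animal known, a group could count only as a single sample, so nothing was tested and every fold below is a description of these cells.

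Medium spiny neurons (MSN) are the projection neurons of the striatum, and dopamine acts on them through cyclic AMP, which D1 receptors raise and D2 receptors lower. Cyclic AMP frees the catalytic subunits of protein kinase A (PKA) from their regulatory subunits, and PKA then phosphorylates DARPP-32, which in that form inhibits protein phosphatase 1 (PP1). Calcineurin, a phosphatase switched on by calcium, takes that phosphate off again, and STEP, ARPP-21 and ARPP-19 are further PKA substrates, of which the first 2 are enriched in striatum.

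In the Drd2-EGFP group, 2 cells had Chat, the acetylcholine-synthesising enzyme, above 100 TPM (A08 and B02 of plate FACS051_5) and were taken as cholinergic interneurons, by a limit set in earlier work on these values. The remaining 38 are called D2 MSN and the 40 Drd1a-TdTomato cells D1 MSN. Drd1 was above 1 TPM in 38 of 40 D1 MSN and in 3 of 38 D2 MSN, and Drd2 in 2 and 26. The summed level of 7 cholinergic marker genes was at most 15.7 TPM in any MSN. The MSN had between 648 and 8657 genes above 1 TPM (median 5506). The depth behind a value is unknown from TPM, and 8 of 12 widely used genes were at 0 in at least 1 MSN, so a 0 is given as listed at 0. Plate FACS051_5 held 18 D1 and 16 D2 MSN, plate FACS086_4 held 21 and 19, and plate FACS086_9 only 1 and 3.

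A few libraries stood apart. Cell B02 of plate FACS086_4, sorted as Drd1a-TdTomato, had 648 genes above 1 TPM, Drd1 listed at 0, and at most 3.28 TPM of any of the 10 genes. Cell D04 of plate FACS051_5, also sorted as Drd1a-TdTomato, had Drd1 at 2.03 TPM together with the astrocyte genes Aldoc at 10427 TPM, Slc1a3 at 1334 TPM and Gja1 at 989 TPM. The summed level of 7 listed astrocyte markers, whose median was 10.5 TPM over D1 MSN, reached 14433 TPM in that cell, against a highest value of 232 TPM among D2 MSN. Among D2 MSN, cell A12 of plate FACS086_9 had 1215 genes above 1 TPM. Lowest values and folds that move with the first 2 of these cells are given with and without them. Both keep the name D1 MSN, which follows the sort and not their markers. They stay in all other counts, shares and correlations unless stated.

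Per length, the 10 genes covered a 79.6-fold span of mean level. In their order the transcripts of DARPP-32, ARPP-21, ARPP-19 and calcineurin A-alpha stood above those of all PKA subunits. The paper describes a bias of signal toward the tail end of transcripts in these data, and for Chrm4 a dependence on the gene annotation. What part this had in levels, ratios and shares compared between genes was not tested. All 10 passed 1 TPM in at least 50% of MSN, as 13.7% of all listed genes did. Ppp1r1b, Arpp21, Arpp19 and Ppp3ca were above 1 TPM in every MSN, which 0.37% of listed genes (93) were. The plot of level against share of cells places the 10 genes beside the other genes of their pathways.

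**Figure D1:**
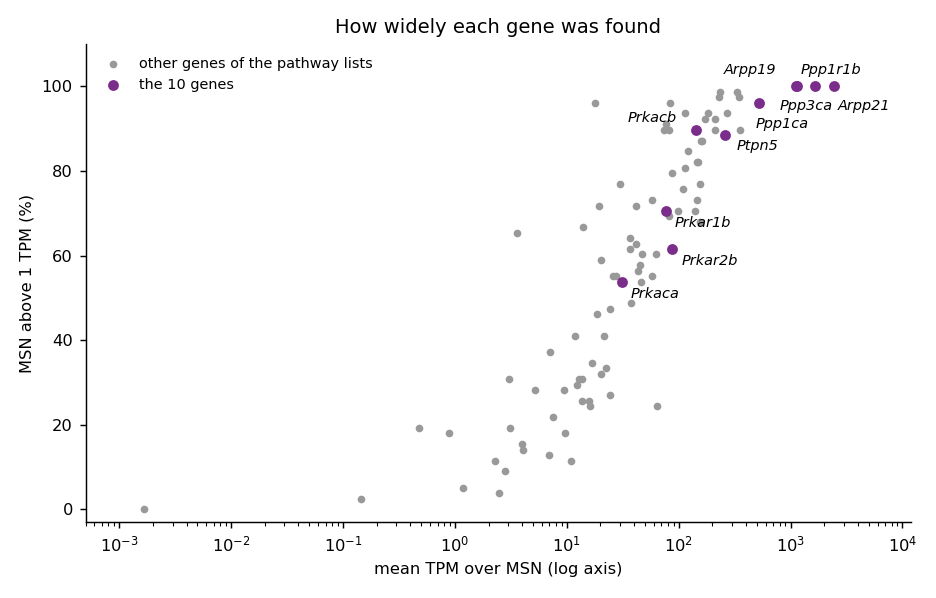
Mean TPM over 78 MSN (log axis) against the share of MSN above 1 TPM, for the 10 genes (purple) and the other listed genes of the pathway lists (grey). Arpp21, Ppp1r1b, Ppp3ca and Arpp19 sit at 100% with means from 1124 to 2469 TPM, and Prkaca sits lowest of the 10 at 53.8% and 31 TPM.

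Arpp21 encodes ARPP-21, a PKA substrate that binds calmodulin when phosphorylated; its gene lies on chromosome 9 (112065091 to 112235938, minus strand, GRCm38) and holds the microRNA gene Mir128-2 at 112118636 to 112118711. It had the highest mean of the 10, 2469 TPM over the MSN, and 24 listed genes had a higher one. In D1 MSN it ran from 3.28 TPM in cell B02 of FACS086_4 through a median of 2551 to 4266 TPM, and from 391.6 TPM upward without the 2 cells that stood apart. In D2 MSN it ran from 32 TPM in cell A12 of FACS086_9 through a median of 2350 to 5535 TPM. All but 2 of 78 MSN were above 100 TPM, and the subtypes overlapped over nearly their whole range. An exon of Arpp21 overlaps 2900079G21Rik on the opposite strand, and reads of such a pair cannot be told apart without strand.

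Ppp1r1b, on chromosome 11 (98348404 to 98357796, plus strand), encodes DARPP-32 itself. Its mean was 1666 TPM, with 35 listed genes above it. The D1 values ran from 1.42 TPM (B02 of FACS086_4) through a median of 1619 to 3334 TPM, and from 150 TPM upward without the 2 cells that stood apart; cell D04 held 106 TPM. D2 MSN ran from 298 TPM through a median of 1645 to 4338 TPM. Every MSN other than B02 was above 100 TPM, and the medians of the subtypes differed by less than the distance between the quartiles of either (847 to 2093 TPM in D1 and 1149 to 2324 TPM in D2). An exon overlaps 1700003D09Rik on the opposite strand.

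Ppp3ca, the alpha isoform of the calcineurin catalytic subunit, lies on chromosome 3 (136670124 to 136937727, plus strand). Its mean over MSN was 1154 TPM. Values in D1 MSN ran from 2.80 through a median of 1400 to 3022 TPM, with a lowest value of 61.3 TPM once the 2 cells were left out. D2 MSN ran from 77.9 through a median of 1029 to 2097 TPM. The upper values lay in D1 MSN, whose upper quartile was 1796 TPM against 1430 TPM in D2.

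Arpp19 encodes ARPP-19, a relative of alpha-endosulfine that inhibits protein phosphatase 2A (PP2A) when the kinase MASTL phosphorylates it, and lies on chromosome 9 (75037614 to 75060313, plus strand). Its mean over MSN was 1124 TPM. In D1 MSN it ran from 1.68 through a median of 770 to 2993 TPM, and in D2 MSN from 23.5 through a median of 1328 to 3927 TPM. The lower end was populated in D1 MSN, where 3 cells were between 1 and 10 TPM: the 2 that stood apart and 1 other, at 2.57 TPM.

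Ppp1ca, the alpha catalytic subunit of PP1 and thus of the enzyme that DARPP-32 inhibits, lies on chromosome 19 (4192065 to 4195420, plus strand) and shares exon sequence with Rad9a on the opposite strand. Its mean over MSN was 525 TPM. D1 MSN ran from 0 through a median of 309 to 1821 TPM, and D2 MSN from 1.78 through a median of 422 to 1934 TPM. Cells above 1 TPM made up 37 of 40 D1 MSN (92.5%, exact 95% interval 79.6 to 98.4%) and 38 of 38 D2 MSN (interval 90.7 to 100%), intervals that overlap and, like all those below, cover counting error only.

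Ptpn5, which encodes STEP, a tyrosine phosphatase held inactive by PKA phosphorylation, lies on chromosome 7 (47077795 to 47133684, minus strand). Its mean over MSN was 262 TPM. D1 MSN ran from 0.13 (0.29 without the 2 cells that stood apart) through a median of 275 to 716 TPM, and D2 MSN from 0 through a median of 243 to 751 TPM. Most MSN were high for it, with 59 of 78 above 100 TPM, while 9 were at or under 1 TPM, 4 of them listed at 0 and all 4 in D2 MSN. The 9 were 4 D1 and 5 D2 MSN. The cells at 0 were C09 and D12 of FACS086_4 and A04 and A12 of FACS086_9. Of these, D12 had 1802 genes above 1 TPM and A12 had 1215.

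Among the catalytic subunits of PKA, the beta isoform stood above the alpha isoform. Prkacb, on chromosome 3 (146729574 to 146812990, minus strand), had a mean of 143 TPM over MSN. It ran from 0.15 (0.23 without the 2 cells that stood apart) through a median of 121 to 536 TPM in D1 MSN, and from 0 through a median of 151 to 383 TPM in D2 MSN. Cells above 1 TPM numbered 36 of 40 in D1 and 34 of 38 in D2. Prkaca, on chromosome 8 (83972993 to 83996443, plus strand), had the lowest mean of the 10, 31 TPM, with 3662 listed genes above it. In D1 MSN it ran from 0 through a median of 2.63 to 130 TPM and 21 of 40 cells were above 1 TPM (52.5%, interval 36.1 to 68.5%). In D2 MSN it ran from 0 through a median of 2.05 to 277 TPM and 21 of 38 cells were above 1 TPM (55.3%, interval 38.3 to 71.4%). The shares in the subtypes thus lay well inside each other's intervals, and 23 of 78 MSN listed Prkaca at 0.

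The regulatory subunits Prkar1b (RI-beta, the neuronal type I subunit) and Prkar2b (RII-beta, the type II subunit prominent in striatum) were at or under 1 TPM in 23 and 30 of 78 MSN. Prkar2b lies on chromosome 12 (31958476 to 32061296, minus strand), and its mean over MSN was 87.6 TPM. D1 MSN ran from 0 through a median of 49.6 to 348 TPM, and D2 MSN from 0 through a median of 20.5 to 507 TPM. Its values were split: 30 of 78 MSN were at or under 1 TPM, 1 was between 1 and 10 TPM, and 47 were above 10 TPM. Among the cells above 1 TPM, the 26 D1 MSN had a median of 91.4 TPM and the 22 D2 MSN one of 156 TPM. A higher median in D1 over all cells therefore went with a higher level in D2 among the cells in which the gene was found. The median over all cells did not keep its direction between plates. It was 35.4 TPM in D1 and 76.4 TPM in D2 on FACS051_5, and 50.8 and 0.59 TPM on FACS086_4.

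Prkar1b lies on chromosome 5 (139017306 to 139150001, minus strand) and overlaps an exon of Gm15672 on the same strand, so part of its reads may have been split or shared. Its mean over MSN was 76.8 TPM. D1 MSN ran from 0 through a median of 23.6 to 446 TPM, and D2 MSN from 0 through a median of 10 to 484 TPM. It was found above 1 TPM in 75% of D1 MSN (30 of 40, interval 58.8 to 87.3%) and 25 of 38 D2 MSN (65.8%, interval 48.6 to 80.4%). As for Prkar2b, the median among cells above 1 TPM stood the other way, at 40.4 TPM in D1 and 69.7 TPM in D2.

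**Figure D2:**
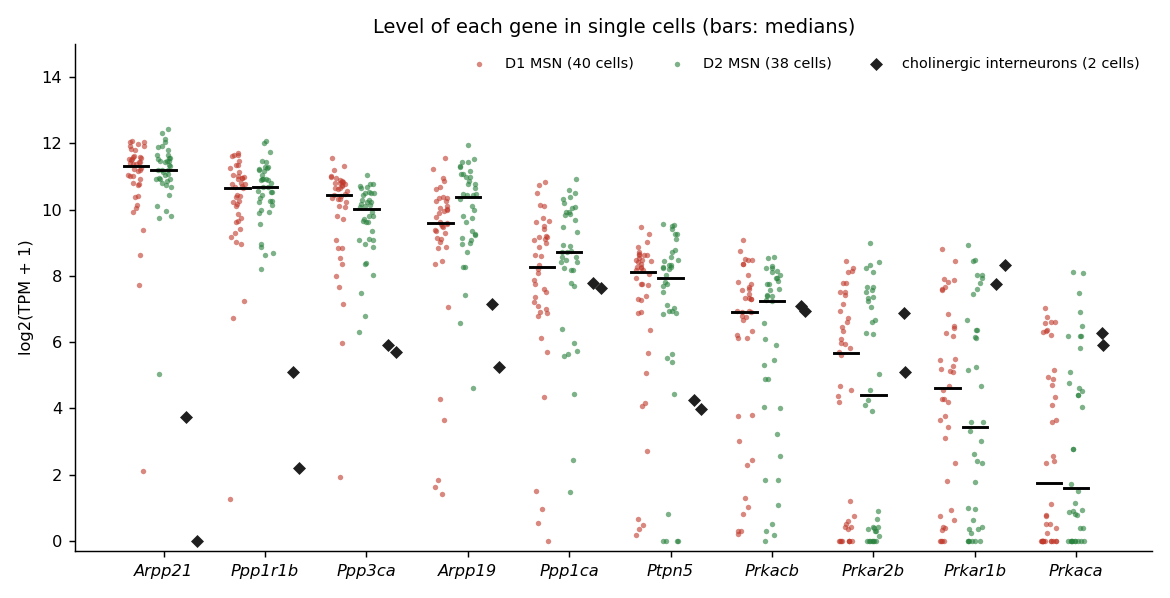
Level of each gene as log2(TPM + 1) in every cell, with D1 MSN in red, D2 MSN in green, the 2 cholinergic interneurons as black diamonds, and bars at the medians of the MSN. The first 4 genes were above 1 TPM in all 78 MSN, and Prkar2b separates into cells near 0 and cells above 10 TPM.

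Neighbours in the order of means were compared within cells, since TPM are per length. Arpp21 was above Ppp1r1b in 62 of 78 MSN, and Ppp1r1b above Ppp3ca in 57. Ppp3ca and Arpp19 did not separate over all MSN, with Ppp3ca the higher of the pair in 45. That pair changed places between subtypes: Ppp3ca was above Arpp19 in 32 of 40 D1 MSN and in 13 of 38 D2 MSN. Prkar2b and Prkar1b did not separate either, Prkar2b being the higher in 34 of 78 MSN although its mean was higher. Ppp1r1b was above Ppp1ca, the subunit its product inhibits, in 74 of 78 MSN, by 3.18-fold in the mean. It was above Prkacb in all 78 MSN, by 11.6-fold in the mean.

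Between D1 and D2 MSN the largest folds were those of Arpp19 and Prkaca, both lower in D1, Ppp3ca had the largest in the other direction, and none reached a doubling. With the log2 fold taken between the mean TPM plus 1 of each subtype, 0 of the 10 genes passed 1 in either direction, where 22.0% of the 7642 genes averaging 10 TPM or more did. The median size of the fold was 0.19 for the 10 genes and 0.48 over all 7642. The 7642 were not matched to the 10 for level, whose means lay at percentiles 85.4 (Prkaca) to 99.9 (Arpp21) of listed genes. The smaller folds are therefore not read as particular to these genes. The folds of 8 genes were below 0, as were those of 49.3% of all 7642 genes, with a median of -0.16 against 0.01. The 8 became 5 under the difference of log2 means and 6 without either large plate. For none of the 10 genes did the subtypes fail to overlap, and 0% of the 7642 genes did.

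Arpp19 had the largest fold, -0.61, from a mean of 895 TPM in D1 and 1366 TPM in D2, which is 1.53-fold lower in D1. The fold was -0.91 on plate FACS051_5 and -0.51 on FACS086_4, and it stayed between -0.70 and -0.53 with any 1 cell left out. The D2 cell was the higher in 64.1% of all pairs of a D1 and a D2 MSN. Without the 2 cells that stood apart, both of which had about 2 TPM of Arpp19, it was -0.54. Under a difference of means of log2 values, which weights low cells more, it was -1.05.

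For Ppp3ca the fold was 0.40, from 1307 TPM in D1 and 992 TPM in D2. It was 0.19 and 0.47 on the 2 large plates, and 0.47 without the 2 cells. The D2 cell was the higher in 35.7% of pairs. A rescaling of each cell to its upper quartile turned it to -0.74, and to 0.34 when the 3 MSN with fewer than 2000 genes were also left out.

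Ppp1ca had a fold of -0.36, close on both large plates (-0.40 and -0.47) and -0.31 without the 2 cells. Prkaca, the least abundant, had -0.49 over all plates, -0.31 on FACS051_5 and -0.89 on FACS086_4. It was -0.53 without the 2 cells that stood apart. The fold rested on few cells, since leaving out a single one moved it anywhere from -0.64 to -0.21. The last value is that without cell A03 of FACS051_5, a D2 MSN.

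Ppp1r1b (-0.15) and Arpp21 (-0.07) had the smallest folds beside Prkacb and Ptpn5. Without the 2 cells that stood apart they were -0.08 and 0.00, so more than 1.5 times smaller. Their folds within the large plates were -0.26 and -0.14 for Ppp1r1b, and -0.18 and -0.17 for Arpp21. The fold of Arpp21 changed sign under 4 of 15 alternatives, and that of Ppp1r1b under none.

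Ptpn5 and Prkacb took opposite directions on the 2 large plates. Ptpn5 had -0.58 on FACS051_5 and 0.34 on FACS086_4, and Prkacb had -0.62 and 0.59. Over all plates their folds were -0.14 and 0.10, the mean of the 2 plate folds was -0.12 for Ptpn5 and -0.016 for Prkacb, and without the 2 cells that stood apart the folds were -0.07 and 0.18. The regulatory subunits had -0.17 for Prkar1b and -0.21 for Prkar2b, which were -0.10 and -0.14 without the 2 cells. With 1 cell left out, Prkar1b ran from -0.37 to 0.03, and both turned positive under the difference of log2 means (0.43 and 0.18). In all, 7 of the 10 genes were below 0 on both large plates, where 26.7% of all 7642 genes were. Only Ppp3ca was above 0 on both, as 23.9% were.

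**Figure D3:**
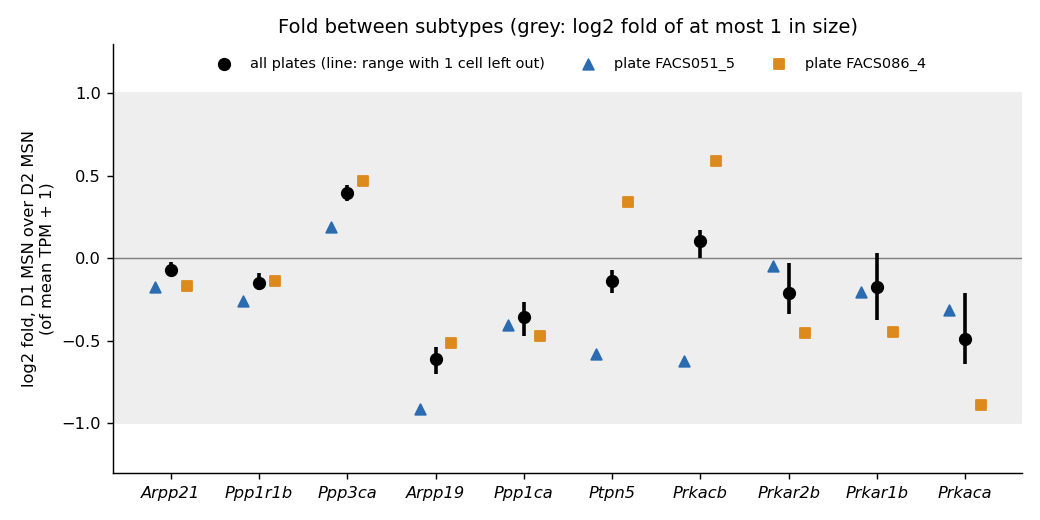
Log2 fold of mean TPM + 1 in D1 MSN over D2 MSN for each gene: black points over all plates with lines for the range when 1 cell is left out, blue triangles for plate FACS051_5 and orange squares for plate FACS086_4. All points lie within the grey band of folds of at most 1 in size, and Ptpn5 and Prkacb have their plates on opposite sides of 0.

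Set within their enzyme families, the leading gene of each was the same in both subtypes. Ppp3ca carried 89.0% of the summed calcineurin catalytic TPM in D1 and 90.7% in D2, with Ppp3cb at 9.94 and 8.82% and Ppp3cc at 1.09 and 0.50%. Ppp1ca carried 55.5% of PP1 catalytic TPM in D1 and 61.9% in D2, ahead of Ppp1cb (27.4 and 20.4%) and Ppp1cc (17.1 and 17.7%). Calcineurin catalytic RNA was thus nearly all that of Ppp3ca, whereas PP1 catalytic RNA was spread over all of its genes. These are shares of RNA, and protein was not measured.

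Prkacb carried 85.2% of the PKA catalytic TPM in D1 and 79.1% in D2. Within plates its share was 78 and 81.4% on FACS051_5, and 89.5 and 74.9% on FACS086_4, so the direction of the subtypes' difference was not the same on both. Of the regulatory TPM, Prkar1a held most, 45.1% in D1 and 50.1% in D2. Prkar2b held 26.5 and 26.1%, and Prkar1b 23.5 and 22.6%. Prkar2a was the scarcest, at 4.89 and 1.11%. Arpp19 made up 76.9% of the sum with its relative Ensa in D1 and 75.7% in D2.

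**Figure D4:**
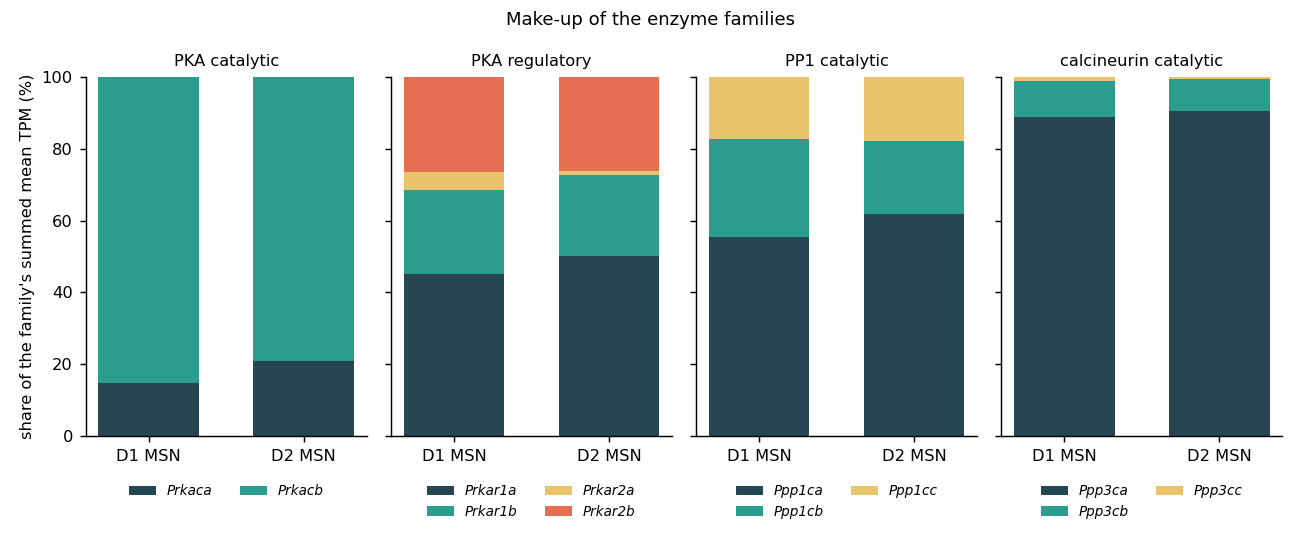
Share (%) of each gene in the summed mean TPM of its enzyme family, for D1 MSN and D2 MSN. Prkacb and Ppp3ca fill most of their families in both subtypes, while Ppp1ca holds 55.5 to 61.9% and no regulatory subunit of PKA holds more than 50.1%.

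Seen cell by cell, a median of 9 of the 10 genes was above 1 TPM, from 5 to 10 in D1 MSN and from 6 to 10 in D2 MSN. Transcripts of Ppp1r1b, Ptpn5 and Arpp21 were found together in 69 of 78 MSN. As Ppp1r1b and Arpp21 were above 1 TPM in every MSN, this is the count for Ptpn5 alone. Prkaca was above 1 TPM in 42 MSN and Prkacb in 70, and whether they shared cells beyond these counts was not tested. Both catalytic subunits of PKA were above 1 TPM in 39 MSN, Prkacb alone in 31, Prkaca alone in 3 and neither in 5. Both Prkar1b and Prkar2b were found in 39 MSN, Prkar1b alone in 16, Prkar2b alone in 9 and neither in 14. The number of the 10 genes found moved with the number of all genes found in the cell (Spearman's rho 0.67 over 78 MSN), and its part in the cells that lacked a subunit was not tested.

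Across the 78 MSN, which share 3 plates and differ in the number of genes found, the levels of the 10 genes were weakly to moderately correlated. Over the 45 pairs the median Spearman's rho was 0.28, from 0.00 for Prkaca with Prkar1b to 0.50 for Ppp1r1b with Arpp21. The median over all pairs of the 3448 genes above 1 TPM in at least 50% of MSN was 0.12. For each of the 10 genes with all of them, the median lay higher, from 0.13 (Prkaca) to 0.22 (Ptpn5). Part of the 0.28 is thus shared with genes at large. With the rank of the number of genes found taken out, the median fell to 0.11 for the 45 pairs, while Ppp1r1b kept 0.40 with Arpp21 and 0.42 with Ppp1ca. Ppp3ca with Prkacb, at 0.48, was at 0.29 after that step. No value after that step is given for all pairs of the 3448 genes, so the 0.11 has no background beside it. These values describe the cells, and no test was made on them.

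**Figure D5:**
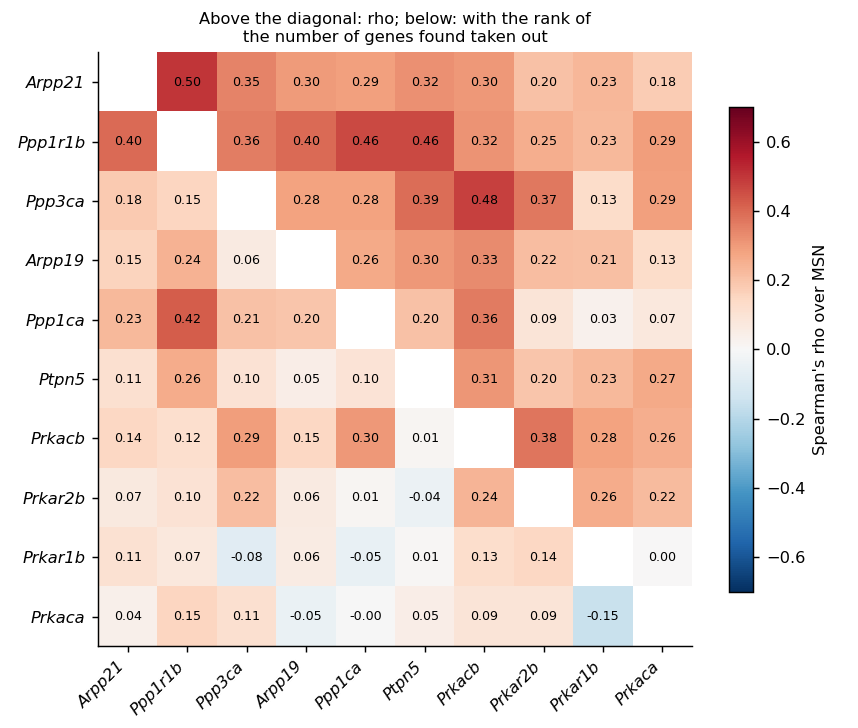
Spearman's rho between the levels of the 10 genes over 78 MSN (above the diagonal), and the same with the rank of the number of genes above 1 TPM taken out (below). The highest values join Ppp1r1b with Arpp21 (0.50), and after that step Ppp1r1b with Ppp1ca (0.42) and with Arpp21 (0.40).

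By the same measure among those 3448 genes, the genes most like Ppp1r1b were Zfp706 (rho 0.64), Hpca (0.62), which encodes the calcium sensor hippocalcin, and the calcium pump gene Atp2b1 (0.61). Such values are the highest of 3448 and are large by that choice, and some differed between plates. On FACS051_5 and FACS086_4, Zfp706 had 0.37 and 0.71, Hpca 0.56 and 0.43, and Atp2b1 0.60 and 0.54. Among the genes closest to Arpp21 were Plcb1 (0.54), which encodes a phospholipase C, and Trim44 (0.52). On the same 2 plates Plcb1 had 0.27 and 0.75, and Trim44 0.45 and 0.56. Arpp19 was most like Calm2 (0.60), a calmodulin gene, Mdh1 (0.56) and Anks1b (0.56). Ppp1ca was most like Ywhaz (0.63), which encodes a 14-3-3 protein, Calm2 (0.62) and the peroxiredoxin gene Prdx2 (0.58). Calm2 was thus among the closest 3 for both. For Ppp3ca they were Kifap3 (0.63), the calcium pump gene Atp2a2 (0.62) and App (0.59), and for Ptpn5 Dusp14 (0.60), Tpm1 (0.59) and Arf3 (0.57).

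Among the PKA subunits, Prkacb was most like Tcaf1 (0.62), the PP2A scaffold gene Ppp2r1a (0.58) and Hp1bp3 (0.55). Prkar2b was most like Arcn1 (0.54), Atp6v1a (0.52) and Ndrg4 (0.51), and Prkar1b most like Arntl2 (0.49), Aldoa (0.47) and Ddn (0.47). On FACS051_5 and FACS086_4, Aldoa had 0.70 and 0.23 with Prkar1b, while Arntl2 had 0.44 and 0.46 and Ddn 0.47 and 0.49. Prkaca had the lowest top value of the 10, 0.48 with Gm17131, followed by Mon1b (0.46) and Chchd10 (0.46).

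The wider pathway was taken from 8 lists with 85 other genes, of which 83 were listed and 64 had a mean of at least 10 TPM. Of these 64, 5 had a log2 fold above 1 and 3 below -1, beside 12.4% and 9.58% of all 7642 genes, and their median was 0.04. Past 1 on both large plates were only Gskip and Csnk2a2, both lower in D1. The share of all 7642 genes past 1 on both plates is not given, so this count is not read as many or few.

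Among the other PKA genes, Prkar1a (RI-alpha, the widespread type I subunit) had a mean of 159 TPM, above every regulatory subunit of the 10, and a fold of -0.38. Prkar2a (RII-alpha) averaged 9.65 TPM and was above 1 TPM in 8 D1 and 6 D2 MSN. Of the PKA inhibitors, which bind the free catalytic subunit, Pkig averaged 155 TPM with a fold of -0.76 (-0.17 and -1.57 on the large plates), and Pkia 46.3 TPM with -0.40, which was -1.18 and 0.32 within the plates. No PKA inhibitor passed 1 over all plates.

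The anchoring proteins, which tie PKA to places in the cell, had 14 of 16 genes listed and 11 with a mean of at least 10 TPM, 0 above 1 and 1 below -1. The highest were Akap9 at 273 TPM (fold -0.05) and Map2 at 231 TPM (0.26), the dendritic microtubule protein that binds type II PKA. Both changed direction between FACS051_5 and FACS086_4, with -0.34 and 0.07 for Akap9 and 0.76 and -0.12 for Map2. Gskip, a small protein that binds PKA and GSK3, had -1.18 (-1.08 and -1.63 on the large plates), with means of 13.4 and 31.7 TPM. It was above 1 TPM in 10 D1 and 16 D2 MSN. Akap10 had 0.88, from 15.6 and 8.02 TPM.

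Of the PP1 genes, 12 had a mean of at least 10 TPM, 2 of them above 1 and 0 below -1. Ppp1cb (212 TPM, fold 0.22) and Ppp1cc (156 TPM, -0.25) were the most abundant beside Ppp1ca. Past 1 were the myosin phosphatase targeting gene Ppp1r12a (1.27, with 0.34 and 2.24 within plates) and Ppp1r16b (1.20, with 1.55 and 0.58), another targeting subunit. Of 5 calcineurin genes at that level, the regulatory subunit Ppp3r1 averaged 347 TPM with a fold of 0.36 and Ppp3cb 122 TPM with 0.59. On FACS051_5 and FACS086_4, Ppp3r1 had -0.31 and 0.88, so opposite directions, and Ppp3cb had 0.03 and 0.82. Ppp3cc had 1.40 (4.10 and 0.50 within plates), found in 5 D1 and 4 D2 MSN. The calcineurin inhibitor Rcan1 had -1.36 (-1.79 and -0.59 within plates), from 8.61 and 23.7 TPM, found in 9 and 11.

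Ensa, which encodes alpha-endosulfine, the PP2A inhibitor related to ARPP-19, had a fold of -0.70 with -0.53 and -0.89 within the plates, the same direction as Arpp19. Its mean was 269 TPM in D1 and 438 TPM in D2. Mastl, the kinase that acts on both, averaged 0.89 TPM and was above 1 TPM in 8 D1 and 6 D2 MSN. Of the 13 PP2A genes at or above a mean of 10 TPM, only Ppp2r5a, a regulatory B subunit, passed 1 (1.20, with 1.44 and 0.96 within plates). The scaffold gene Ppp2r1a averaged 210 TPM with a fold of 0.08.

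Of the other kinases of DARPP-32, 7 averaged 10 TPM or more. The casein kinase 2 genes Csnk2b (139 TPM, fold 0.21) and Csnk2a1 (84.1 TPM, -0.35) were the most abundant. Within plates Csnk2b had 0.72 and -1.32, so opposite directions, and Csnk2a1 had -0.35 and -0.22. Csnk2a2, the other catalytic subunit of casein kinase 2, had -1.23 (-1.18 and -1.62 within plates), from 22.1 TPM in D1 and 53.1 TPM in D2. Of 13 neuronal targets of PKA and STEP, the glutamate receptor genes Gria2 (334 TPM, 0.06) and Grin2b (233 TPM, -0.13) were the highest. Within plates their directions differed, with -0.17 and 0.11 for Gria2 and 0.26 and -0.59 for Grin2b. The STEP substrates Fyn (0.66) and Mapk3 (0.52) had the largest folds that kept 1 direction on both large plates, with that of Fyn at 0.00 on FACS051_5 and 1.22 on FACS086_4. Stmn1, named here after its values were seen, was the one target past 1 (2.33), with 4.29 on FACS051_5 and -0.25 on FACS086_4, and it was above 1 TPM in 8 D1 and 11 D2 MSN.

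The 2 cholinergic interneurons, both from plate FACS051_5, listed much less of Ppp1r1b, Arpp21 and Ppp3ca, while the 4 PKA subunits lay within the range of the MSN. They had 10912 and 10251 genes above 1 TPM, more than any MSN, and they are a pair of cells, so their values are given singly (A08, then B02). Ppp1r1b stood at 33.0 and 3.63 TPM, against a mean of 1998 TPM over the MSN of that plate. The lowest of these MSN was D04, the cell with high astrocyte genes, at 106 TPM, and the next was B07 at 502 TPM. Arpp21 stood at 12.2 and 0 TPM against 2588 TPM. Ppp3ca stood at 59.0 and 51.5 TPM against 1153 TPM. For each of these 3 genes both cells were below every MSN of their plate.

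Ptpn5 stood at 14.8 and 18.2 TPM and Arpp19 at 142 and 36.7 TPM, which left 10 and 6 of 78 MSN below both cells. Ppp1ca, at 198 and 218 TPM, had 24 MSN below both. The log2 folds over all MSN were -6.43 for Ppp1r1b, -4.36 for Ppp3ca, -3.91 for Ptpn5, -3.64 for Arpp19 and -1.33 for Ppp1ca. With Arpp21, 6 of the 10 genes were thus below -1, beside 22.0% of the 9780 genes averaging 10 TPM or more in either kind of cell.

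The PKA subunits stood otherwise. Prkacb was at 122 and 136 TPM, among the MSN values, with 40 of 78 MSN below both cells and 38 above both. Prkaca was at 58.8 and 76.9 TPM, above 61 of 78 MSN in both cells, and Prkar1b at 216 and 323 TPM, above 66. The folds of Prkaca (1.11) and Prkar1b (1.80) were above 1, as were those of 36.6% of the 9780 genes. Against the MSN of the same plate Prkaca had 0.84 and Prkar1b 1.78. Prkar2b, at 33.2 and 116 TPM, had a fold of -0.23. More genes were found in both cells than in any MSN, and the part of this in the higher values of Prkaca and Prkar1b was not tested. In the same cells Ppp1r1b, Arpp21, Ppp3ca, Ptpn5, Arpp19 and Ppp1ca had lower means than in MSN.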

How the data were processed

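Each sample was the cDNA of 1 sorted cell, made with a SMARTer kit. The TPM values per gene and cell were made and deposited by the authors. The sources name STAR 2.5.0, the build mm10/GRCm38 and featureCounts 1.5.1, and how counts became TPM is not given in the sources used here. TPM keep no read depth. The limit of 1 TPM used for shares of cells is thus a choice and not a measured limit of detection. All 80 columns were matched to a sample by title.

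The study used several animals, but the labels tie none to a cell, so each group counted as 1 sample and no p-value was computed. The log2 fold was taken between (mean TPM + 1) of D1 and D2 MSN, and a gene was called found above 1 TPM, with exact Clopper-Pearson 95% intervals. Folds were repeated within the 2 large plates. Spearman's rho used log2(TPM + 1) over MSN. Coordinates are those of GENCODE on GRCm38, the build of the files.

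The genes, the lists and the limit on Chat were chosen with earlier results of these data known. The text names the 10 genes; per list, the 2 genes with the highest mean and the 2 with the largest fold among those averaging at least 10 TPM and keeping 1 direction on both large plates; and the 3 genes most like each of the 10 among genes above 1 TPM in at least 50% of MSN, of which 1 is not reported here. Mastl, Stmn1 and the family members outside this rule were added after their values were seen. Alternatives (36 planned, 14 added after seeing the data) changed the pseudocount (0.1 or 10 TPM), the averaging, the scaling, the detection limit and the cells. No doublet caller was run on these sorted single cells. Scripts were checked on simulated data. The tools were scipy 1.17.1, pandas 2.3.3 and numpy 2.4.6 under Python 3.11.15, with matplotlib 3.10.9 for figures.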

Additional observations from a re-analysis of the deposited data

How the results depend on the processing

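No paired analysis was possible because the labels give neither replicate numbers nor animals that would pair samples, and no result comes from a test; folds within plates stand in the text. Of the 10 genes, 0 passed a log2 fold of 1, but 1 (Arpp19) did with a difference of means of log2 values, and 3 did (Ppp1r1b at -2.23, Arpp19 at -1.91, Ppp1ca at -2.49) when each cell was rescaled to its upper quartile. That rescaling multiplied cell B02 of FACS086_4 by 384 and cell A12 of FACS086_9 by 198, and without the 3 MSN under 2000 genes 0 genes passed. The median of all genes moved by -0.14 under it and by 0.15 under the log2 means, and the share of folds past 1 that were higher in D1 went from 56.5% to 42.8% and 73.2%. The median fold of the 10 genes, -0.16, was -0.075 with log2 means, -0.22 as the mean of the plates, -0.10, -0.13 and -0.23 without FACS051_5, FACS086_4 and FACS086_9, -0.72 with upper quartiles, -0.39 with these and no cells under 2000 genes, and -0.13 with the cholinergic interneurons kept; it was -0.12 without cell B02 of FACS086_4, -0.12 without D04 of FACS051_5 and -0.087 without both. The folds of Ppp1r1b, Arpp19, Ppp1ca and Prkaca kept their sign under all 15 alternatives run; Ptpn5, Prkacb, Prkar1b and Prkar2b changed it under 2 each, Arpp21 under 4 and Ppp3ca under 1.

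The 8 pathway genes past 1 became 2 with a pseudocount of 10 TPM, 5 with log2 means, 13 without FACS051_5 and 20 with upper quartiles. With a limit of 10 TPM in place of 1, 0 genes of the 10 were found in every MSN instead of 4. The median correlation of the 45 pairs, 0.28, was 0.25 within FACS051_5 and 0.25 within FACS086_4, 0.11 with the number of genes taken out, 0.24 without cells under 2000 genes, 0.26 without B02, 0.28 without D04 and 0.25 without both. The cause of these changes was not tested. With cells of unknown animals and unknown depth, none of the folds can be set against the spread between animals, and genes listed at 0 may have been missed.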
